A study of Mus musculus with 32 samples.

Results

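The hormones and secreted proteins that fat tissue sends into the blood were followed here through 9 genes, taken by name from the deposited count table: Lep, Adipoq, Retn, Cfd, Rbp4, Nampt, Apln, Agt and Rarres2. They are 9 of the 47224 gene IDs that carried a symbol, and all 9 passed the filter on low counts in epididymal white adipose tissue (eWAT), the fat pad beside the epididymis. In liver 7 of the 9 passed it, and Lep and Apln did not. The mice were C57BL/6 males (C57BL/6J in the study's methods), 10 weeks old, and each group stayed 7 days on its regimen. Corticosterone (Cort), the main glucocorticoid of rodents, was given in the drinking water, and control mice drank the vehicle, ethanol (Veh). Either treatment was combined with a normal protein diet (NPD, 20% of energy as protein) or a high-protein diet (HPD, 60%) that held less carbohydrate, so the diets differed in more than protein. Crossing treatment and diet gave 4 groups, called Veh NPD, Cort NPD, Veh HPD and Cort HPD, each with 4 eWAT and 4 liver libraries made by sequencing from the 3′ ends of transcripts.

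Adipokines are proteins that fat releases as signals. Leptin, the product of Lep, reports fat stores to the brain and lowers food intake, adiponectin (Adipoq) raises insulin sensitivity, and resistin (Retn) opposes insulin in mice. Adipsin (Cfd) is the protease that starts the alternative complement pathway, chemerin (Rarres2) attracts immune cells, apelin (Apln) acts on vessels and heart, retinol-binding protein 4 (Rbp4) carries vitamin A, Nampt makes the NAD precursor nicotinamide mononucleotide, and angiotensinogen (Agt) is the precursor of the angiotensin peptides. Glucocorticoids act through a nuclear receptor that binds DNA, and fat is one of their targets.

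The question was how Cort and dietary protein each moved these transcripts. In eWAT, Lep and Agt rose and Adipoq and Cfd fell with Cort on both diets, Nampt rose and Rarres2 fell with Cort on the NPD, and no member passed the test between diets. For Nampt and Rarres2 the change with Cort was not shown to differ between diets. The promoters of Lep, Agt, Adipoq and Cfd are shown because these are the members called in the same direction on both diets. Each line holds the 250 bases before the RefSeq gene start on the gene's own strand (build GRCm38.p6), and capitals mark matches, on either strand, to the motifs searched. The motifs were the TATA box (TATAAA), the CCAAT box (CCAAT), the GC box (GGGCGG), a glucocorticoid receptor half-site (AGAACA) and the palindrome bound by C/EBP factors (TTGCGCAA).
Lep, chr6:29059971-29060220, plus strand: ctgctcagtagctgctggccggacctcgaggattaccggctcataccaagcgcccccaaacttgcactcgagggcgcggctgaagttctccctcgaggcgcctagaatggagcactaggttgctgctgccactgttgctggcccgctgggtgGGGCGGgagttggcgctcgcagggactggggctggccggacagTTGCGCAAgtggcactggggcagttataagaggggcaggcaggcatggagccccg
Agt, chr8:124569707-124569956, minus strand: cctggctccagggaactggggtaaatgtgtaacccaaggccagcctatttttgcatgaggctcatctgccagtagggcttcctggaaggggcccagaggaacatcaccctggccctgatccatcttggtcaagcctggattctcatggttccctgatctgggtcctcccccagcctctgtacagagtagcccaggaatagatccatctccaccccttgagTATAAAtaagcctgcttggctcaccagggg
Adipoq, chr16:23146286-23146535, plus strand: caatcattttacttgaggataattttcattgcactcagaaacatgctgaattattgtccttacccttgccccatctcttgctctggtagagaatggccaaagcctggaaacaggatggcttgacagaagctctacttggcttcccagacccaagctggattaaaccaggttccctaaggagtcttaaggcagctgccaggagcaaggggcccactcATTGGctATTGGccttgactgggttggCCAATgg
Cfd, chr10:79890603-79890852, plus strand: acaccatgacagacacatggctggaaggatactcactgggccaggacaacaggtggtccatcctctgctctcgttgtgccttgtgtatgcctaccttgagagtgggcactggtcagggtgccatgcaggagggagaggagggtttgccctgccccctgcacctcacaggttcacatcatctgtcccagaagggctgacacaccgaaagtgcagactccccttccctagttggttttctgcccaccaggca
Lep held a GC box, 98 bases before the start, and a C/EBP palindrome 55 bases before it. That palindrome occurred in 0.164% of the 32851 promoters of the same length, against 32.7% for the GC box. The Agt window held a TATA box 30 bases before the start, as did 12.4% of all promoters in some position. Adipoq held 3 CCAAT matches, 34, 27 and 7 bases before the start, and 33.8% of all promoters held at least 1. No searched motif matched in the Cfd window. The half-site occurred in 16.1% of all promoters and in none of the 9 promoters found for 8 of the members (Rbp4 has 2).

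Depth was 9794683 to 18057936 counts per eWAT library and 8933307 to 17447524 per liver library in the fit. The 9 members together took 1.27 to 3.45% of an eWAT library's counts. Adipocyte markers such as Plin1 (1006 to 1452 CPM, counts scaled to a total of 1000000, over the 16 eWAT libraries) and Fabp4 (14438 to 21143 CPM) were high in every eWAT library, and the summed adipocyte markers overlapped between groups, at 24455 to 33162 CPM. Testis and epididymis markers summed to 6141 CPM in eWAT Cort HPD replicate 4. Red blood cell markers summed to 12687 to 25861 CPM in Cort HPD and to 3619 to 9274 CPM in the other eWAT groups. The part of either in the results was not tested. The eWAT library Veh HPD replicate 4 had the highest value of its group for 5 members (Adipoq, Agt, Cfd, Nampt and Retn) and the lowest for 2 (Apln and Rarres2). Such counts were not particular to it. Veh HPD replicate 3 was highest for 4 and lowest for 4, and Veh NPD replicate 3 was highest for 1 and lowest for 6. The liver library Veh HPD replicate 4 was left out of the liver fit, because the study marks it as removed. This leaves 3 liver libraries for Veh HPD. The labels do not say whether the eWAT and liver libraries of Veh HPD replicate 4 came from 1 mouse. In such bulk tissue fewer cells of a type and less RNA per cell cannot be told apart.

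With Cort on the NPD, 6 of the 9 members passed the test in eWAT (edgeR's quasi-likelihood test, Benjamini-Hochberg adjusted p below 0.05 over 15187 genes), beside 7.98% of all genes tested. Of these, 3 were higher (4.05% of all genes) and 3 lower (3.93%). With Cort on the HPD, 4 of 9 passed, beside 6.09% of all genes, 2 higher (3.46%) and 2 lower (2.63%). The median absolute log2 fold change over the members was 0.78 on the NPD and 0.81 on the HPD, against 0.31 and 0.30 over all genes tested. The groups did not overlap for 7 of 9 members on the NPD, beside 14.9% of all genes, and for 4 of 9 on the HPD, beside 11.3%. Without Veh HPD replicate 4 the members called were 7 on the NPD and 6 on the HPD. On the NPD they were 2 without Veh NPD replicate 1 and 3 without Cort NPD replicate 2. All groups share 1 fit, so a library left out moves the spread used in every comparison. The share of all genes called is not set beside these left-out counts, so their changes are not a result about the members.

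**Figure D1:**
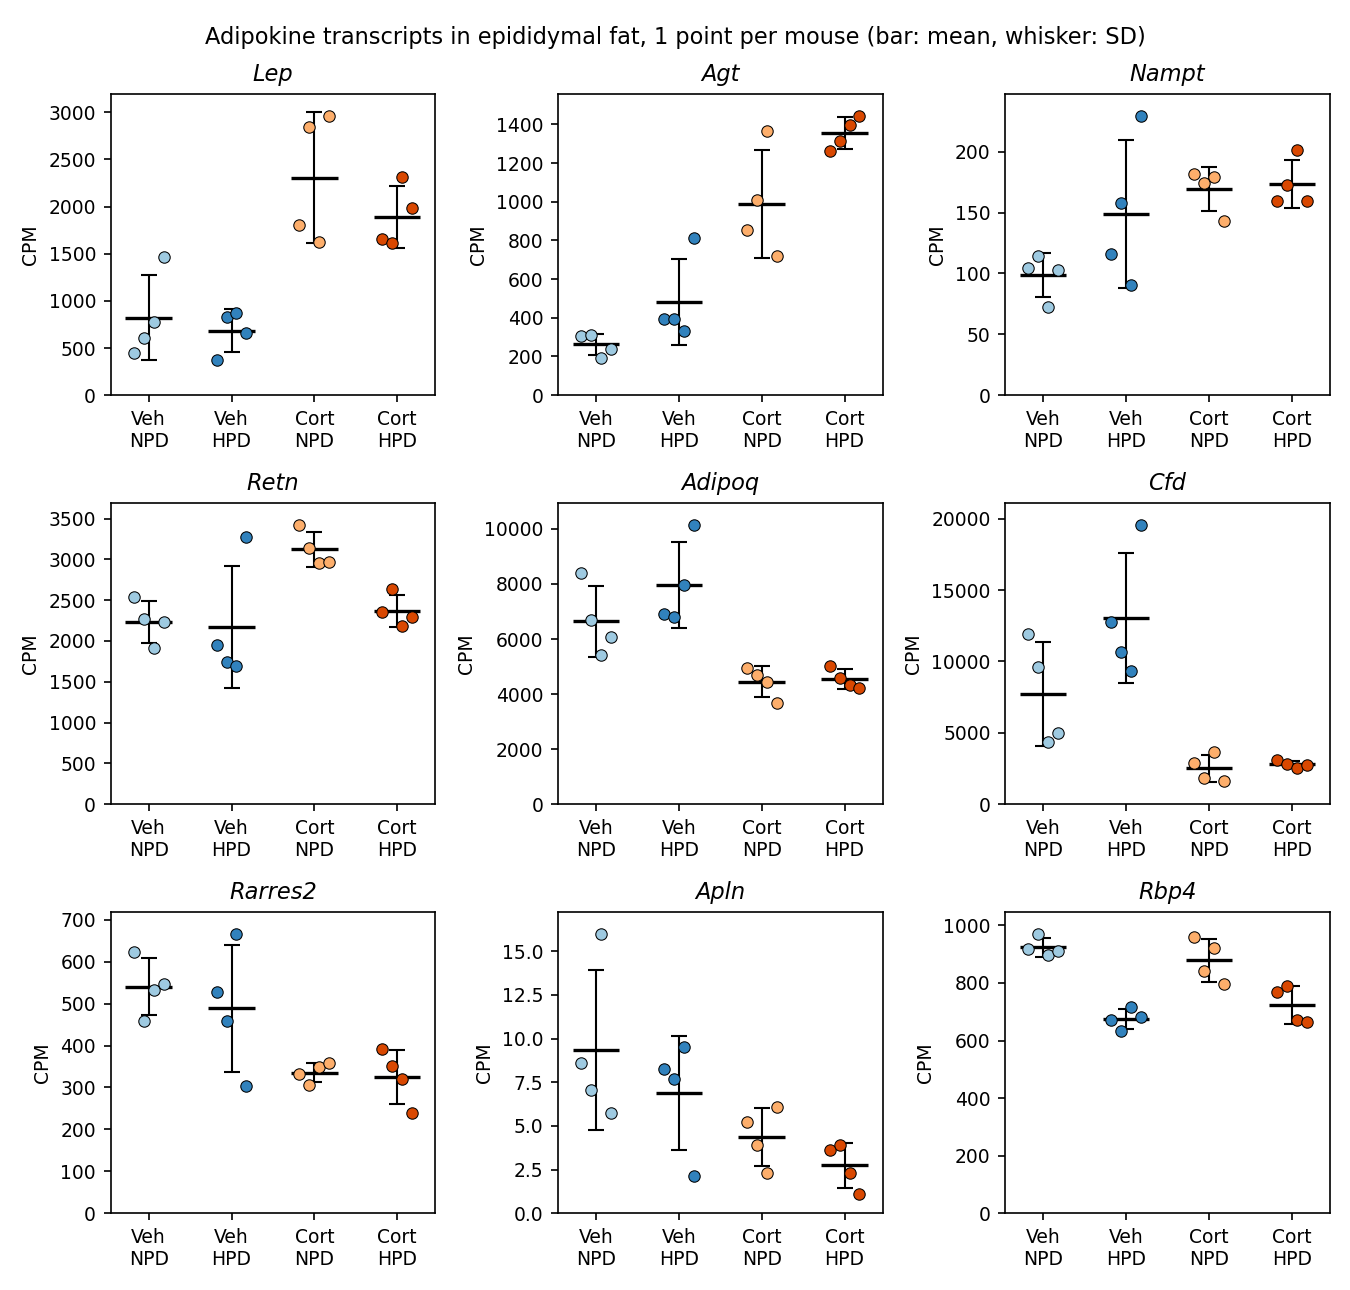
CPM of each member (y axis, from 0) in every eWAT library, 1 point per mouse, for the 4 groups on the x axis; thick bars are means and whiskers SDs (n = 4). All Lep and Agt values of Cort NPD lie above all of Veh NPD, all Cfd and Adipoq values lie lower with Cort on either diet, and Rbp4 lies higher on the NPD than on the HPD in Veh mice.

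Lep, the gene of leptin (chromosome 6, 29060220 to 29073877 on the plus strand in GRCm38), was measured in Veh NPD mice at 444, 604, 778 and 1470 CPM and in Cort NPD mice at 1801, 2847, 1624 and 2963 CPM. On the HPD, Veh mice had 371, 831, 869 and 659 CPM and Cort mice 1655, 1610, 2317 and 1988 CPM. All 8 Cort mice were above all 8 Veh mice, and the NPD and HPD ranges overlapped within either treatment. Lep rose 2.80-fold on the NPD (log2 1.49 ± 0.37 SE, edgeR adjusted p = 0.0268) and 2.77-fold on the HPD (log2 1.47 ± 0.37, edgeR adjusted p = 0.0355). These calls were close to the threshold. On the NPD the Lep call was lost without Veh NPD replicate 1, 2 or 3 or Cort NPD replicate 2 or 4, with edgeR adjusted p between 0.0640 and 0.0817, and when only the NPD groups were fitted (0.0880). On the HPD it was lost without any single 1 of the 8 HPD libraries or without Veh NPD replicate 3, with edgeR adjusted p between 0.0511 and 0.0914, and the log2 difference stayed between 1.27 and 1.61 over all 16 such fits.

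Agt lies on chromosome 8 (124556534 to 124569706, minus strand), and its protein is cut by renin and then by angiotensin-converting enzyme. Veh NPD mice had 305, 312, 195 and 238 CPM of Agt and Cort NPD mice 855, 1010, 1366 and 717 CPM. In the HPD groups Agt stood at 394, 394, 329 and 815 CPM with Veh and at 1261, 1313, 1398 and 1445 CPM with Cort. Cort and Veh mice did not overlap on either diet, although the 815 CPM of Veh HPD replicate 4 lay above the lowest Cort NPD mouse. Agt rose 3.76-fold on the NPD (log2 1.91 ± 0.27, edgeR adjusted p = 0.000361) and 2.80-fold on the HPD (log2 1.49 ± 0.27, edgeR adjusted p = 0.00305). It passed under each of the 23 alternatives tried on either diet. Liver is a known source of Agt, and hepatocyte markers in eWAT summed to 43.2 to 95.5 CPM in Veh and 79.2 to 136 CPM in Cort libraries, against 92882 to 283630 CPM in liver. Of 6 such markers tested in eWAT 1 rose with Cort on the NPD, Apoc3 (log2 3.25, edgeR adjusted p = 0.0268), and none on the HPD. Of all genes tested 4.05% rose on the NPD and 3.46% on the HPD. Among the 10 markers listed, Alb, the albumin gene, stood at 31.4 to 84.2 CPM in eWAT, and F2, the prothrombin gene, was at 0 in 16 of 16 libraries. The part of hepatocyte RNA in the Agt result was not tested.

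Nampt, whose protein is the rate-limiting enzyme of NAD salvage and is also found in blood, had 105, 114, 72.5 and 103 CPM in Veh NPD and 181, 174, 179 and 143 CPM in Cort NPD. With the HPD the values were 116, 158, 90.4 and 229 CPM in Veh and 160, 172, 201 and 159 CPM in Cort. The NPD groups did not overlap, whereas the HPD groups did, with Veh HPD replicate 4 the highest of the 16 mice. Nampt rose 1.72-fold on the NPD (log2 0.78 ± 0.21, edgeR adjusted p = 0.0261). On the HPD the log2 difference was 0.22 ± 0.21 (edgeR adjusted p = 0.635), and 0.51 without Veh HPD replicate 4 (edgeR adjusted p = 0.0546). The change by Cort was not shown to differ between diets (interaction -0.56, 95% interval -1.18 to 0.06, edgeR adjusted p = 0.965). The NPD call was lost without Veh NPD replicate 1, 3 or 4 or Cort NPD replicate 1, 2 or 3, with edgeR adjusted p up to 0.0889.

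Retn, the resistin gene, had 2537, 2264, 1911 and 2227 CPM in Veh NPD and 3422, 3144, 2953 and 2965 CPM in Cort NPD. On the HPD it had 1953, 1746, 1698 and 3278 CPM with Veh and 2359, 2641, 2184 and 2291 CPM with Cort. The 4 Cort NPD mice were above the 4 Veh NPD mice, but the difference missed the threshold (log2 0.48 ± 0.16, edgeR adjusted p = 0.0569). On the HPD the log2 difference was 0.13 ± 0.16 (edgeR adjusted p = 0.732). The calls depended on the setting. Without Veh HPD replicate 4 the log2 difference was 0.48 on the NPD (edgeR adjusted p = 0.00129) and 0.40 on the HPD (edgeR adjusted p = 0.0182). The NPD difference also passed without Veh HPD replicate 3 (edgeR adjusted p = 0.0426), with only the NPD groups fitted (edgeR adjusted p = 0.00795), with limma-voom (adjusted p = 0.0432) and with DESeq2 (adjusted p = 0.0283).

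Adipoq, on chromosome 16 (23146536 to 23158028, plus strand), moved the other way. Its CPM were 8409, 6695, 5402 and 6074 in Veh NPD, and 4959, 4703, 4457 and 3678 in Cort NPD. On the HPD they were 6915, 6786, 7964 and 10148 in Veh, and 5036, 4580, 4325 and 4236 in Cort. All 8 Cort mice were below all 8 Veh mice. Adipoq fell to 0.669 of the Veh level on the NPD (log2 -0.58 ± 0.14, edgeR adjusted p = 0.0108) and to 0.571 on the HPD (log2 -0.81 ± 0.14, edgeR adjusted p = 0.000680). The NPD call was lost without Veh NPD replicate 1 (edgeR adjusted p = 0.0617) or Cort NPD replicate 4 (edgeR adjusted p = 0.0502).

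Cfd, the adipsin gene (chromosome 10, 79890853 to 79892655, plus strand), had the steepest decrease among the members. Veh NPD mice had 11892, 9595, 4384 and 5015 CPM and Cort NPD mice 2901, 1846, 3636 and 1645 CPM. Veh HPD mice had 12774, 10629, 9333 and 19571 CPM and Cort HPD mice 3129, 2820, 2549 and 2749 CPM. No Cort mouse reached the lowest Veh mouse, and the spread was wide among Veh mice and narrow in Cort HPD (SD 241 CPM about a mean of 2812). Cfd fell to 0.325 of the Veh level on the NPD (log2 -1.62 ± 0.36, edgeR adjusted p = 0.0131) and to 0.215 on the HPD (log2 -2.22 ± 0.36, edgeR adjusted p = 0.00255). When the NPD groups were fitted alone the NPD call was lost (edgeR adjusted p = 0.0663).

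Rarres2 encodes chemerin. Its CPM were 624, 458, 533 and 547 in Veh NPD and 331, 305, 348 and 357 in Cort NPD. On the HPD, Rarres2 stood at 528, 457, 666 and 303 CPM with Veh and at 391, 351, 321 and 239 CPM with Cort. The NPD groups did not overlap, and on the HPD they did so through Veh HPD replicate 4. Rarres2 fell on the NPD (log2 -0.69 ± 0.18, edgeR adjusted p = 0.0156). On the HPD the log2 difference was -0.59 ± 0.18 (edgeR adjusted p = 0.0501), and -0.76 without Veh HPD replicate 4 (edgeR adjusted p = 0.000799). It also passed without Cort HPD replicate 1 (edgeR adjusted p = 0.0363), with RLE factors (0.0495), with library totals (0.0428), with the replicate block (0.0336) and with DESeq2 (adjusted p = 0.0161). The NPD call was lost without Veh NPD replicate 1 (edgeR adjusted p = 0.0582) or Cort NPD replicate 2 (edgeR adjusted p = 0.0533).

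Apln, the apelin gene, was the scarcest member, at 17 to 238 counts per eWAT library. In Veh NPD it had 8.59, 7.07, 15.997 and 5.72 CPM, and in Cort NPD 5.23, 3.93, 2.29 and 6.05 CPM. Veh HPD mice had 8.25, 7.68, 9.54 and 2.14 CPM and Cort HPD mice 3.63, 3.90, 2.33 and 1.09 CPM. Both pairs of groups overlapped. The log2 difference with Cort was -1.10 ± 0.44 on the NPD (edgeR adjusted p = 0.144) and -1.35 ± 0.45 on the HPD (edgeR adjusted p = 0.0792), and neither passed. Without Veh HPD replicate 4 the HPD difference was -1.65 and passed (edgeR adjusted p = 0.0123).

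Rbp4 was the member whose eWAT levels separated by diet. It stood at 918, 971, 896 and 912 CPM in Veh NPD and at 959, 841, 923 and 795 CPM in Cort NPD. In Veh HPD it stood at 670, 632, 715 and 681 CPM and in Cort HPD at 768, 790, 671 and 663 CPM. The HPD mice were below the NPD mice within either treatment, with no overlap. The differences with Cort were small, at log2 -0.07 (95% interval -0.29 to 0.15) on the NPD and 0.10 (-0.12 to 0.32) on the HPD.

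**Figure D2:**
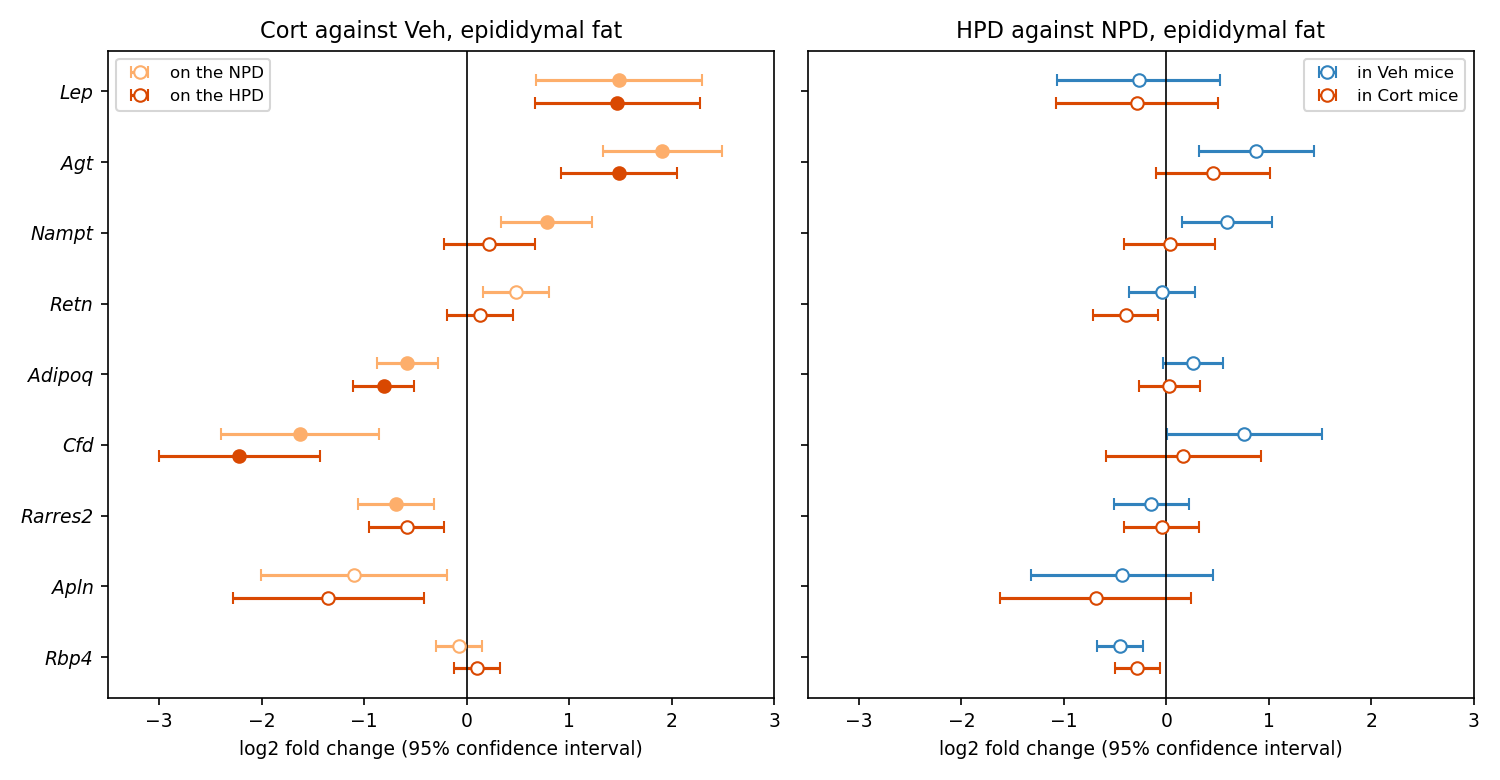
Log2 fold changes of the 9 members in eWAT with 95% confidence intervals (x axis), for Cort against Veh on either diet (left) and for the HPD against the NPD within either treatment (right); filled points passed the test at adjusted p below 0.05. Filled points appear in the left panel only, with Lep, Agt, Adipoq and Cfd filled for both diets.

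The diet comparison asks whether the HPD, with more protein and less carbohydrate, moved the members within either treatment. In Veh mice 0 of 9 members passed in eWAT (edgeR's quasi-likelihood test, beside 0.0593% of all genes), and 4 of 9 had an unadjusted p under 0.05, namely Agt, Cfd, Nampt and Rbp4. The groups did not overlap for Rbp4 and Agt, 2 of 9 members, beside 4.28% of all genes. Rbp4 was 0.730 of the NPD level (log2 -0.45 ± 0.11, edgeR adjusted p = 0.105). It passed with limma-voom (adjusted p = 0.0483) and with DESeq2 (adjusted p = 0.000305). The shares of all genes that these tools called are not given here. Agt had a log2 difference of 0.88 ± 0.26 (edgeR adjusted p = 0.312), and 0.50 without Veh HPD replicate 4. The same values were 0.76 ± 0.35 for Cfd (0.50 without that library) and 0.59 ± 0.21 for Nampt (0.30 without it).

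Among Cort mice 0 of 9 members passed between diets in eWAT (edgeR, beside 0.487% of all genes), and 2 had an unadjusted p under 0.05. These were Rbp4 (log2 -0.28 ± 0.11, edgeR adjusted p = 0.366) and Retn (log2 -0.40 ± 0.16, edgeR adjusted p = 0.371), and for both the 4 HPD mice lay below the 4 NPD mice. Such a lack of overlap held for 6.66% of all genes. Retn passed when these 2 groups were fitted alone (edgeR adjusted p = 0.0313) and without Veh HPD replicate 4 (edgeR adjusted p = 0.0463). Lep had a log2 difference of -0.29 (95% interval -1.08 to 0.51), and Adipoq of 0.03 (-0.26 to 0.33). For the interaction of diet and Cort, 0 of 9 members passed (edgeR, beside 0.0132% of all genes), and none had an unadjusted p under 0.05. These intervals were wide. That of Lep ran from -1.13 to 1.10 on the log2 scale and that of Cfd from -1.66 to 0.47.

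The order of the groups summarises these levels. For Lep, Adipoq and Cfd the 2 Cort groups did not overlap the 2 Veh groups, and within a treatment the diets were not separated. For Agt the order was Cort HPD, Cort NPD, Veh HPD and Veh NPD, and only Veh HPD and Veh NPD were apart among neighbours. For Retn, Cort NPD stood apart from Cort HPD, the next group. For Rbp4, both NPD groups stood apart from both HPD groups. For Nampt, Apln and Rarres2 every pair of neighbours overlapped.

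The genes whose CPM varied most like each member within groups were found over the 16 eWAT libraries (log2 CPM with group means taken off). Retn varied most like Uqcrc2 (Pearson r 0.98) and Pdha1 (0.96), which encode parts of mitochondrial complex III and of pyruvate dehydrogenase. Veh HPD replicate 4 lay far from its group for Retn (3278 CPM against 1698 to 1953 CPM), and r was not computed without it. Lep varied most like Malt1 (0.88), Adipoq like Slc44a3 (0.92), Cfd like Sfxn1 (0.90) and Agt like D10Jhu81e (0.92). Rarres2 varied most like Dock11 (0.93), Apln like Wwtr1 (0.91), Rbp4 like Entpd5 (0.88) and Nampt like 1700017B05Rik (0.90). Each value is the highest over all 15187 genes tested in libraries that share their depth and tissue make-up, and is a description only.

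Members' levels were then set beside the adipocyte's own markers. Of 9 adipocyte markers 4 rose with Cort on the NPD, 1 rose on the HPD and none fell on either. Of all genes tested 4.05% rose on the NPD and 3.46% on the HPD. Plin1, which coats the lipid droplet, had log2 differences of 0.03 and -0.15, and Fabp4, the fatty acid carrier, of 0.07 and 0.10. Slc2a4, the insulin-responsive glucose transporter GLUT4, rose on the NPD (log2 1.14, edgeR adjusted p = 0.00120). Of 5 adipocyte progenitor markers 3 fell with Cort in NPD mice and 4 in HPD mice, beside 3.93% and 2.63% of all genes, and none rose. They summed to 1648 to 2439 CPM in Cort and 2277 to 3439 CPM in Veh libraries, and their part in the members' differences was not tested.

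The receptors on which the members act were read in the same libraries. Of 15 receptor genes 10 passed the filter, and 1 passed the test with Cort on either diet, Aplnr, the apelin receptor. Of all genes tested 7.98% passed on the NPD and 6.09% on the HPD, so 1 of 10 is not a result about the receptors. Aplnr had 34 to 175 counts in Veh NPD and 1 to 4 counts in Cort NPD libraries, so that its fitted fold has no stable size, and it was lower with edgeR adjusted p = 1.3e-05. On the HPD it had 27 to 56 counts with Veh and 5 to 11 with Cort (log2 -1.998 ± 0.58, edgeR adjusted p = 0.0377). Aplnr is an endothelial gene, and of 5 endothelial markers 2 fell with Cort in NPD mice and 1 in HPD mice, with summed levels of 385 to 725 CPM in Veh NPD, 352 to 388 CPM in Cort NPD, 357 to 514 CPM in Veh HPD and 307 to 422 CPM in Cort HPD. Their part in the Aplnr result was not tested. The adiponectin receptors Adipor1 and Adipor2 had log2 differences of 0.17 and 0.44 on the NPD and 0.18 and 0.08 on the HPD. Cmklr1, the chemerin receptor, had 0.06 and -0.27, Agtr1a, the angiotensin receptor, -0.53 and -0.59, and Cdh13, which binds adiponectin, -0.14 and -0.54. Lepr, the leptin receptor, was at a mean of 0.23 to 1.0 CPM and could not be read at this depth. The other 3 tested, Cap1, Gpr1 and Ccrl2, did not pass on either diet.

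Of 21 genes of partners and processing enzymes 17 passed the filter, with 3 lower and none higher with Cort on the NPD, and 5 lower and none higher on the HPD. Of all genes tested 3.93% were lower and 4.05% higher on the NPD, and 2.63% and 3.46% on the HPD. Ace, which cuts angiotensin I, fell from 29.2 to 36.3 CPM in Veh NPD to 9.89 to 13.4 CPM in Cort NPD (log2 -1.44 ± 0.20, edgeR adjusted p = 2.23e-05). On the HPD Ace fell by 1.27 on the log2 scale (edgeR adjusted p = 0.000145), and Enpep, which trims angiotensin II, fell by 0.93 (edgeR adjusted p = 0.0111). Both diets thus had higher Agt and lower Ace with Cort. Adipsin cuts the product of Cfb, complement factor B, which fell by 1.12 on the NPD and by 0.51 on the HPD on the log2 scale (edgeR adjusted p = 6.13e-06 and 0.0281). Properdin, from Cfp, stabilises the same enzyme complex, and Cfp fell by 0.98 and by 0.65 (edgeR adjusted p = 0.000201 and 0.0123). C3, the complement component on which that complex acts, fell by 0.68 on the HPD (edgeR adjusted p = 0.0229), with a log2 difference of -0.49 on the NPD (edgeR adjusted p = 0.0992). Macrophages also make properdin, and of 6 macrophage markers 2 fell with Cort on the NPD, and 1 rose and 2 fell on the HPD, their sums being 748 to 1153 CPM and overlapping between groups. Their part was not tested.

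**Figure D3:**
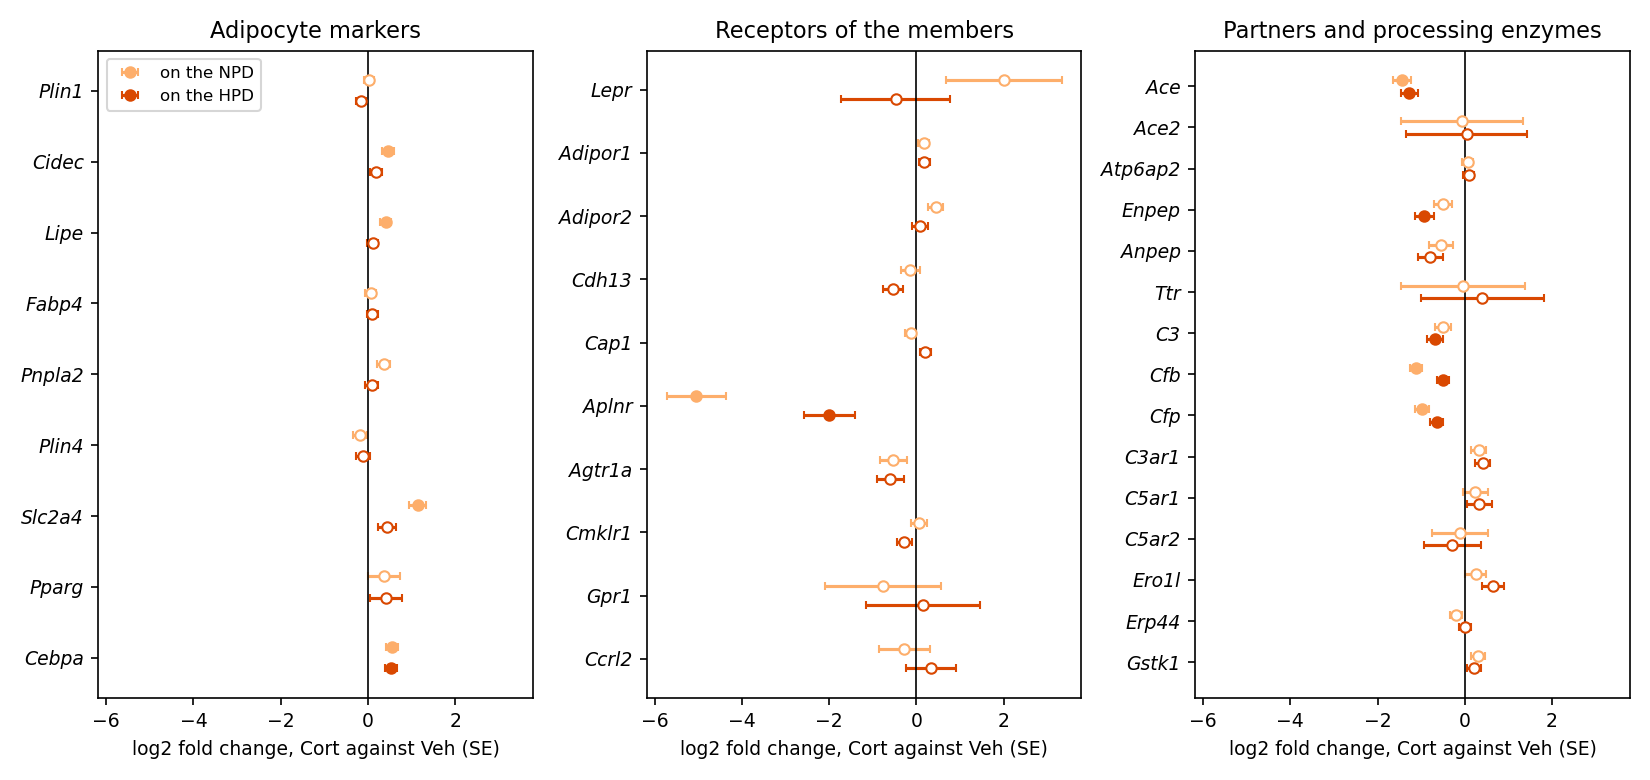
Log2 fold changes with Cort in eWAT (x axis; whiskers are SE) for adipocyte markers, receptors of the members, and most of the partners and processing enzymes, among genes that passed the filter on low counts, on the NPD (light) and the HPD (dark); filled points passed the test. Ace, Cfb and Cfp are filled to the left of 0 on both diets, and Plin1 and Fabp4 lie within 0.15 of 0.

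Among 12 regulators of leptin transcription and secretion 2 rose and none fell with Cort on either diet. Of all genes tested 4.05% rose and 3.93% fell on the NPD, and 3.46% and 2.63% on the HPD. Hsd11b1, the enzyme that regenerates active glucocorticoid inside cells, went from 136 to 195 CPM in Veh NPD to 441 to 560 CPM in Cort NPD (log2 1.57 ± 0.33, edgeR adjusted p = 0.0101), and rose by 1.39 on the HPD (edgeR adjusted p = 0.0249). Cebpa, a C/EBP factor of adipocytes, rose by 0.55 and 0.52 on the log2 scale (edgeR adjusted p = 0.0133 and 0.0228). The glucocorticoid receptor gene itself, Nr3c1, had log2 differences of -0.29 and -0.27, and did not pass. Of 12 glucocorticoid receptor target genes 4 rose and none fell on the NPD, and 2 rose and 2 fell on the HPD, beside the same shares of all genes. Mt1, a metallothionein, rose by 2.34 and 1.90 (edgeR adjusted p = 0.000612 and 0.00307). Zbtb16, a transcription factor, fell by 1.24 on the HPD (edgeR adjusted p = 0.0433). Fkbp5, a chaperone of the receptor, rose by 1.74 on the NPD (edgeR adjusted p = 0.0156), and on the HPD its log2 difference was 0.60 (edgeR adjusted p = 0.445).

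Genes of NAD salvage and use give the setting of Nampt. Of 16 tested, 1 rose with Cort in NPD mice and 2 did in HPD mice, and none fell. Of all genes tested 4.05% rose on the NPD and 3.46% on the HPD, so these low counts are a description only. Cd38, an enzyme that consumes NAD, rose by 0.81 and 0.70 on the log2 scale (edgeR adjusted p = 0.00839 and 0.0276). Nnmt, which methylates nicotinamide, the substrate of Nampt, rose by 0.62 on the HPD (edgeR adjusted p = 0.00166), with 0.36 on the NPD (edgeR adjusted p = 0.0618). Of 46 other fat-secreted factors that passed the filter, 5 rose and 9 fell with Cort on the NPD, and 4 rose and 6 fell on the HPD. The shares of all genes that fell were 3.93% on the NPD and 2.63% on the HPD. Hp, which encodes haptoglobin, rose by 2.57 and 2.14 on the log2 scale (edgeR adjusted p = 7.58e-11 and 1.94e-09). Retnla, a relative of Retn, fell by 2.91 and 2.17 (edgeR adjusted p = 1.25e-10 and 1.42e-08), and Igf1, the growth factor, stood at a mean of 416 CPM in Veh NPD and 147 CPM in Cort NPD, and at 396 and 140 CPM on the HPD (edgeR adjusted p = 4.58e-06 and 5.22e-06). C1qtnf12, a relative of adiponectin, rose by 0.86 and 0.61 (edgeR adjusted p = 0.000352 and 0.0108), so that Adipoq and this relative moved in opposite directions on both diets. Pltp, the phospholipid transfer protein, fell by 0.98 on the NPD (edgeR adjusted p = 5.49e-05), and C1qtnf2 fell by 1.55 on the HPD (edgeR adjusted p = 0.0255).

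In liver, which secretes Rbp4, Agt and chemerin into the blood, 4 of 7 members passed with Cort on the NPD, beside 12.6% of all genes tested, 2 higher (6.84%) and 2 lower (5.79%). Cfd, 1 of the 2 lower, stood at means of only 3.86 CPM in Veh NPD and 0.84 CPM in Cort NPD, and these groups overlapped. Adipoq and Retn, also among the 7, were scarce too. With Cort on the HPD 1 of 7 passed, beside 9.89% of all genes, and it was higher (4.75%, with 5.14% lower). The groups did not overlap for 3 of 7 members on the NPD, beside 18.5% of all genes, and for 2 of 7 on the HPD, beside 21.2%. The counts with a library left out have no share of all genes beside them. The NPD count was 1 without Veh NPD replicate 1 and 2 without Veh NPD replicate 2 or Cort NPD replicate 2. The HPD count was 0 without Veh HPD replicate 1 or 2 and 3 without Cort HPD replicate 1. In liver Cort HPD replicate 1 the 10 most counted genes took 42.2% of the counts, against 32.8 to 34.0% in the other Cort HPD livers. Its hepatocyte markers summed to 283630 CPM, against 172078 to 215458 CPM in the others. The part of this make-up in its member values was not tested.

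Rbp4 in liver had 2301, 2873, 2987 and 2727 CPM in Veh NPD and 4423, 4433, 3765 and 3532 CPM in Cort NPD. With the HPD it had 2417, 3066 and 3051 CPM in Veh and 3812, 3504, 3729 and 3866 CPM in Cort. Cort and Veh livers did not overlap on either diet. Of 10 hepatocyte markers 2 rose and 3 fell with Cort on the NPD, and 4 rose and 1 fell on the HPD. Of all liver genes tested 6.84% rose and 5.79% fell on the NPD, and 4.75% and 5.14% on the HPD. Their sum was 102991 to 135544 CPM in Veh NPD and 148653 to 162674 CPM in Cort NPD livers. It was 92882 to 99624.5 CPM in Veh HPD and 172078 to 283630 CPM in Cort HPD livers. Red blood cell markers summed to 5272 to 7625 CPM in Cort HPD and to 1358 to 3544 CPM in the other liver groups. The part of either in the liver results was not tested. Rbp4 rose 1.48-fold on the NPD (log2 0.57 ± 0.15, edgeR adjusted p = 0.0142), with 0.39 ± 0.16 on the HPD (edgeR adjusted p = 0.140, and 0.0462 with DESeq2). The NPD call was lost without Veh NPD replicate 1 (edgeR adjusted p = 0.0691) and when all 16 livers were fitted (edgeR adjusted p = 0.0873). Rbp4 leaves the liver bound to transthyretin, and Ttr rose on the HPD (log2 0.76 ± 0.18, edgeR adjusted p = 0.00922), with a log2 difference of 0.024 on the NPD (edgeR adjusted p = 0.947).

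Rarres2 in liver had 620, 638, 652 and 867 CPM in Veh NPD and 369, 468, 322 and 430 CPM in Cort NPD, with no overlap. With the HPD it had 502, 569 and 770 CPM in Veh and 604, 347, 401 and 320 CPM in Cort, and there the groups overlapped through Cort HPD replicate 1. It fell to 0.572 of the Veh level on the NPD (log2 -0.81 ± 0.20, edgeR adjusted p = 0.00863). On the HPD the log2 difference was -0.55 ± 0.21 (edgeR adjusted p = 0.102), and -0.78 without Cort HPD replicate 1 (edgeR adjusted p = 0.00819). It also passed with library totals (edgeR adjusted p = 0.00404), but that setting moved the median log2 difference of all genes to -0.24. That pass therefore says little about Rarres2. With all 16 livers fitted the NPD call was lost (edgeR adjusted p = 0.0901).

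Nampt in liver had 34.2, 33.4, 38.1 and 54.5 CPM in Veh NPD and 70.6, 70.2, 68.2 and 62.4 CPM in Cort NPD. With the HPD it had 52.1, 48.3 and 67.2 CPM in Veh and 174, 92.0, 81.4 and 83.5 CPM in Cort. Every Cort liver was above every Veh liver of its diet, and Cort HPD replicate 1 was far above the rest. Nampt rose 1.69-fold on the NPD (log2 0.76 ± 0.21, edgeR adjusted p = 0.0230) and 1.93-fold on the HPD (log2 0.95 ± 0.23, edgeR adjusted p = 0.0126). The NPD call was lost without Veh NPD replicate 1, 2 or 3 or Cort NPD replicate 2 or 3 (edgeR adjusted p up to 0.0806). On the HPD the call did not hold with replicate 1 or 2 of Veh HPD left out (edgeR adjusted p = 0.0706 and 0.0627) or with only the HPD groups fitted (0.0532), and its log2 difference was 0.62 at the lowest over the libraries left out.

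Agt in liver had 250, 310, 375 and 327 CPM in Veh NPD and 418, 507, 296 and 312 CPM in Cort NPD, which overlapped. With the HPD it had 371, 371 and 430 CPM in Veh and 400, 647, 939 and 564 CPM in Cort, again with overlap. The log2 differences with Cort were 0.28 ± 0.22 on the NPD (edgeR adjusted p = 0.442) and 0.71 ± 0.24 on the HPD (edgeR adjusted p = 0.0620). The latter passed with all 16 livers fitted (log2 0.82, edgeR adjusted p = 0.0343), without Cort HPD replicate 1 (edgeR adjusted p = 0.0105) and with DESeq2 (adjusted p = 0.0324). Between diets in Cort livers 1 of 7 members passed, beside 5.88% of all genes, and it was Agt, higher on the HPD. Its log2 difference was 0.73 ± 0.22 (edgeR adjusted p = 0.0469), and the call held in 4 of the 15 fits with 1 library left out. Nampt had 0.67 ± 0.21 in that comparison (edgeR adjusted p = 0.0668), with the 4 Cort HPD livers above the 4 Cort NPD livers. That was 1 of 7 members without overlap, beside 13.3% of all genes. Between diets in Veh livers 0 of 7 members passed (edgeR, beside 0.169% of all genes), 0 of 7 did not overlap (beside 9.47%), and 1 had an unadjusted p under 0.05, Nampt. For the liver interaction of diet and Cort 0 of 7 passed (edgeR, beside 0.113%), and none had an unadjusted p under 0.05.

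**Figure D4:**
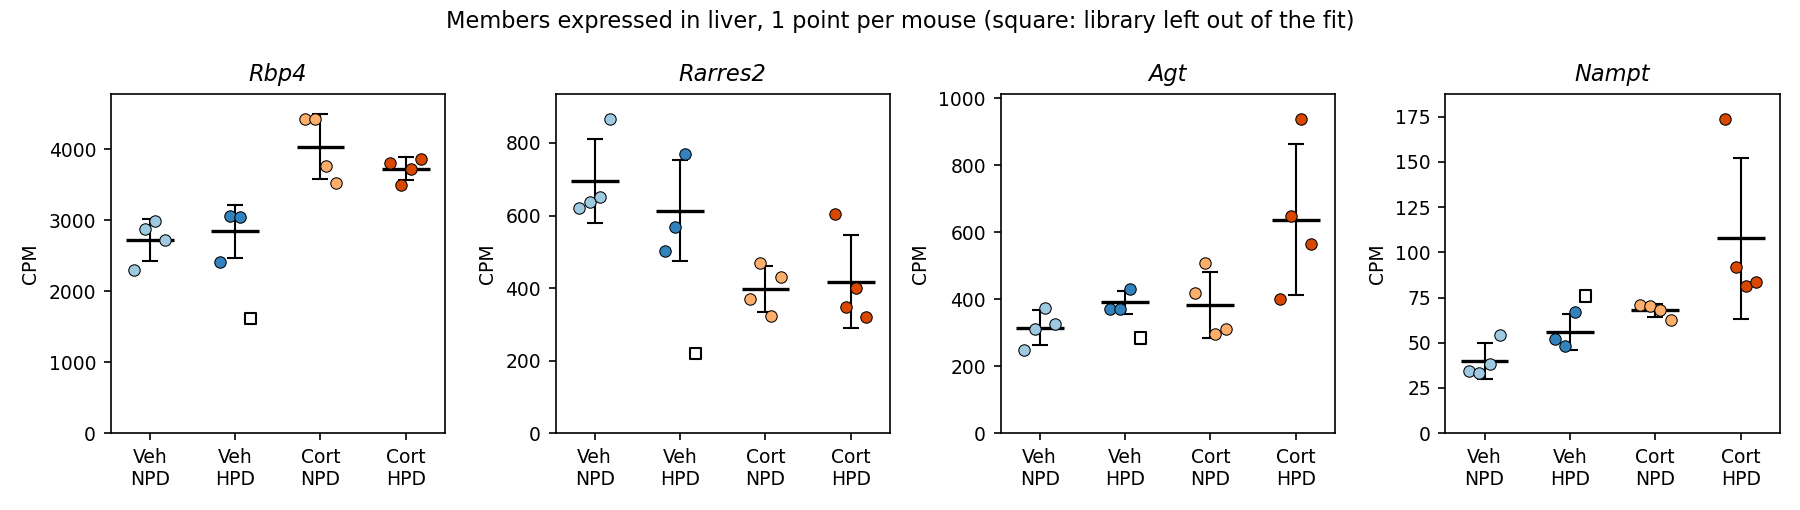
CPM in liver (y axis, from 0) of the 4 members expressed there, 1 point per mouse, for the 4 groups on the x axis; thick bars are means and whiskers SDs (n = 4, and 3 for Veh HPD), and the open square is the library left out of the fit. Rbp4 and Nampt lie higher and Rarres2 lower in Cort NPD than in Veh NPD, and the left-out library lies lowest of all livers for Rbp4 and Rarres2.

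The remaining members were traces in liver. Lep had 0 to 9 counts and Apln 0 to 6 counts per library. Adipoq stood at 0.23 to 3.48 CPM, Retn at 0.09 to 1.74 CPM and Cfd at 0.12 to 7.59 CPM, the last with 2 to 107 counts. Cfd passed as lower with Cort on the NPD (log2 -2.23 ± 0.66, edgeR adjusted p = 0.0359), with overlapping groups. That call was lost without Veh NPD replicate 1 or 2 or Cort NPD replicate 1, 2 or 4 (edgeR adjusted p up to 0.109), with all 16 livers (0.0916) and with no filter on low counts (0.105). The adipocyte marker Plin1 stood at 0 to 1.69 CPM in the same livers, and its part in the Cfd traces was not tested.

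Whether Cort moved the members differently in fat and liver was tested in 1 fit of 31 libraries. Lep, Apln, Adipoq, Retn and Cfd were traces in liver, so their contrasts between tissues rest on few liver counts. Lep and Apln did not pass the liver filter and entered this fit through their eWAT counts. Only Agt, Rbp4, Nampt and Rarres2 can be compared between tissues. On the NPD 2 of 9 members passed, beside 3.85% of all genes. Agt rose more in eWAT than in liver, by 1.59 ± 0.35 on the log2 scale (edgeR adjusted p = 0.00585), and passed under each of the 38 alternatives tried. For Rbp4 the log2 difference with Cort was lower in eWAT than in liver, by -0.68 ± 0.19 (edgeR adjusted p = 0.0349), which passed in 12 of the 31 fits with 1 library left out and not with all 16 livers (edgeR adjusted p = 0.148). On the HPD 0 of 9 passed (edgeR, beside 3.12% of all genes), and 3 had an unadjusted p under 0.05, of which Agt (0.82 ± 0.36, edgeR adjusted p = 0.241) alone is expressed in both tissues. Agt passed there without eWAT Veh HPD replicate 4 (edgeR adjusted p = 0.0407). Rarres2 had differences between tissues of 0.08 on the NPD (95% interval -0.51 to 0.66) and 0.0036 on the HPD (-0.61 to 0.61), and Nampt of -0.02 (-0.68 to 0.65) and -0.69 (-1.38 to 0.00). The labels do not tie an eWAT library to a liver library, so these fits treat the tissues as separate mice.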

How the data were processed

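RNA from eWAT and liver was made into 3′ mRNA libraries (QuantSeq, per the labels), 1 per sample, 32 in all. The table the authors deposited holds raw counts, 1 line for each Ensembl gene. GRCm38 and R 4.0.3 are named in the submitters' processing notes, and the aligner and counter are not given in the sources used here. Of 47643 IDs, 47224 took a symbol from a GENCODE annotation of GRCm38.

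Groups came from the sample titles. Each tissue was fitted with edgeR 4.0.16 (R 4.3.3): filterByExpr (minimum count 10, minimum total 15), TMM factors, 1 mean per group, quasi-likelihood tests and Benjamini-Hochberg adjustment over all genes tested (15187 in eWAT, 12391 in liver, 16482 for both tissues together), with a threshold of 0.05. The liver library Veh HPD replicate 4 was left out, as the study marks it as removed. CPM are counts scaled to 1000000 after TMM. Totals set the counting precision, and tag counts without molecular identifiers need not be independent molecules. Each sample of a tissue is called a mouse here, from its replicate number and the group sizes the paper gives. The labels say no more on this, and p-values measure the spread between these samples.

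The members and gene lists were chosen with earlier results of these data known. Genes named from the lists came from the 3 called genes per direction with the smallest p whose groups did not overlap, the receptors, and a few genes chosen after their values were seen (C3, F2, Fabp4, Nr3c1, Plin1 and Cebpa on the HPD). For each member the likest genes were those with the highest within-group Pearson r. Alternatives were RLE factors, library totals without factors, no filter, a replicate block, limma-voom 3.58.1, DESeq2 1.42.0, only the compared groups, all 16 livers, and each library left out. Same-numbered deviations had a median correlation of -0.01 in eWAT and -0.02 in liver, which cannot show whether replicate numbers paired the samples. No pair of the 48 replicate pairs held identical counts. The tests were checked on simulated counts with larger changes than most members showed and less spread than the eWAT fit. That check cannot speak for calls near the threshold. A few genes of the lists are not reported here. Promoters are from RefSeq (GRCm38.p6); 8 of the 9 members had an entry, and Rarres2 is named only.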

Additional observations from a re-analysis of the deposited data

Results flagged for a closer look

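Within groups of 4 libraries, 4 of 54 groups held a member value whose gap to the next library took most of the group's range, and chance alone gives about 1 in 20 such groups. Agt in eWAT Veh HPD replicate 4 had 815 CPM against 329 to 394 CPM in the other 3 mice. Retn in the same library had 3278 CPM against 1698 to 1953 CPM. Nampt in liver Cort HPD replicate 1 had 174 CPM against 81.4 to 92.0 CPM, and Rarres2 in liver Veh NPD replicate 4 had 867 CPM against 620 to 652 CPM.

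The change with Cort differed between tissues on the NPD for Agt, larger in eWAT by 1.59 on the log2 scale (edgeR adjusted p = 0.00585), and for Rbp4, with a difference of -0.68 (edgeR adjusted p = 0.0349). In the liver library Veh HPD replicate 4, which enters only the fits with all 16 livers, Nampt stood at 75.8 CPM, above the highest Veh NPD liver at 54.5 CPM.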

How the results depend on the processing

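Leaving out 1 library at a time, the members called with Cort in eWAT were 2 to 7 on the NPD and 3 to 6 on the HPD. Those between diets were 0 to 0 in Veh and 0 to 1 in Cort mice, and those of the interaction 0 to 0. In liver they were 1 to 4 and 0 to 3 with Cort on the NPD and the HPD, 0 to 0 and 0 to 1 between diets in Veh and Cort mice, and 0 to 0 for the interaction. For the difference between tissues they were 1 to 2 on the NPD and 0 to 1 on the HPD. No share of all genes stands beside the counts of this section. They describe these fits and are not a result about the members. Agt with Cort in eWAT on either diet and its tissue difference on the NPD kept their call under every alternative. So did Adipoq and Cfd with Cort in eWAT on the HPD. With Cort on the NPD, Cfd in eWAT and Rarres2 in liver kept their call under each library left out.

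Between diets 1 member was called in Veh eWAT by limma-voom and 1 by DESeq2, and 1 in Cort eWAT with only those 2 groups fitted. In HPD livers with Cort the count was 2 with library totals, 2 with no filter, 3 with DESeq2, 0 with only the 2 groups and 2 with all 16 livers. In NPD livers it was 1 with all 16 livers. Between diets in Cort livers it was 0 with library totals, limma-voom, only the 2 groups or all 16 livers, and 2 with no filter or DESeq2. For the tissue difference it was 1 on the NPD with all 16 livers, and 1 on the HPD with DESeq2. With no filter the eWAT calls of Lep on the HPD (edgeR adjusted p = 0.0539) and Nampt on the NPD (0.0580) were lost.

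With the replicate number as a block, 6 members were called with Cort in eWAT on the NPD and 5 on the HPD, 0 between diets in Cort livers and 1 for the tissue difference on the NPD. Of same-numbered pairs, 1 of 24 in eWAT and 3 of 21 in liver had a correlation over 0.1. Of other-numbered pairs, 3 of 72 in eWAT and 8 of 63 in liver did. These values cannot show whether the numbers paired the samples.

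Among the members only differences that had not passed the test changed sign. With library totals Rarres2 between diets was 0.0092 in Cort eWAT and -0.13 in Cort liver, and the interaction was 0.040 for Lep in eWAT, and -0.10 for Nampt and -0.020 for Rarres2 in liver. With all 16 livers Rbp4 between diets in Veh liver was -0.10. The tissue difference of Nampt on the NPD was 0.00052 with RLE factors, 0.00097 with the block, 0.00024 with DESeq2 and 0.017 with all 16 livers, and that of Rarres2 on the HPD -0.054 with RLE factors, -0.054 with DESeq2 and -0.30 with all 16 livers. With 1 library left out, differences between diets in Veh eWAT ran from -0.48 to 0.16 for Lep, -0.31 to 0.057 for Retn and -0.33 to 0.027 for Rarres2. In Cort eWAT they ran from -0.050 to 0.087 for Adipoq, -0.051 to 0.070 for Nampt and -0.15 to 0.079 for Rarres2. The eWAT interaction ran from -0.45 to 0.19 for Lep, -0.64 to 0.015 for Apln and -0.070 to 0.29 for Rarres2. In liver, Rbp4 between diets ran from -0.010 to 0.17 in Veh, Rarres2 from -0.16 to 0.18 in Cort, and the Nampt interaction from -0.14 to 0.34. The tissue difference ran from -0.21 to 0.11 for Nampt on the NPD, and for Rarres2 from -0.054 to 0.20 on the NPD and -0.22 to 0.24 on the HPD. The cause of each change was not tested. Library totals without factors moved the median log2 difference of all genes by over 0.1 with Cort in HPD livers (-0.24), between diets in Cort livers (-0.18), for the liver interaction (-0.22) and for the tissue difference on the HPD (0.24). Traces in liver, and Apln and Aplnr in eWAT, are limited by their counts.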

Other observations

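Partners of the members were also read in liver. C3, the central complement component, rose with Cort on the NPD (log2 0.73 ± 0.16, edgeR adjusted p = 0.00449), while Cfp fell by 1.29 (edgeR adjusted p = 7.55e-05). Macrophage markers in liver summed to 125 to 193 CPM in Veh and 61.3 to 137 CPM in Cort mice, and their part was not tested. Nnmt, which methylates the substrate of Nampt, rose by 1.27 in NPD and 1.34 in HPD livers (edgeR adjusted p = 0.000704 and 0.00151). Between diets in Cort livers Ttr was higher on the HPD (log2 0.77 ± 0.17, edgeR adjusted p = 0.00721) and C3 lower (log2 -0.81 ± 0.16, edgeR adjusted p = 0.00434).

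Among other fat-secreted factors in liver, Lcn2, which encodes lipocalin 2, rose by 4.86 in NPD and 4.74 in HPD livers (edgeR adjusted p = 3.74e-08 and 3.16e-07). Enho, which encodes adropin, fell by 2.96 and 2.40 (edgeR adjusted p = 0.000327 and 0.00379). Serpina12, which encodes vaspin, was lower on the HPD in Cort livers (log2 -3.30 ± 0.42, edgeR adjusted p = 0.000680). In Veh eWAT, Orm1, an acute-phase protein gene, was lower on the HPD (log2 -1.18, edgeR adjusted p = 0.000289).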
